A study of Mus musculus with 9 samples.

Results

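Genes of the vesicle fusion machinery were followed in polysome-bound mRNA of mouse oocytes at 3 stages of meiotic maturation. The members are the genes whose symbol names a VAMP, a syntaxin, a syntaxin-binding protein, a SNAP SNARE, a synaptotagmin or a subunit of the exocyst, together with Napa and Nsf. By that rule 62 genes were found among the 18193 genes that had a probe set with a single symbol, and they were measured by 146 probe sets. One of the 62, Snap91, shares the SNAP name but encodes a clathrin adaptor and is no SNARE. Oocytes were taken from gonadotropin-primed mice at the germinal vesicle (GV) stage, metaphase I (MI) and metaphase II (MII), with 3 Affymetrix arrays per stage and 9 in all. All mice had received PMSG, which drives follicle growth, and 48 h later hCG, the ovulatory signal. The GV oocytes were collected at 0 h after hCG, the MI oocytes at 4 h and the MII oocytes at 14 h. The labels call the replicates biological, and the design text speaks of 3 independent sample sets. The labels used here give no strain, age, genotype or number of oocytes per sample, and nothing says that replicates came from separate animals. The p-values test differences between stage means against the spread of these arrays within a stage, and part of that spread may be technical.

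SNARE proteins drive the fusion of a vesicle with its target membrane. A vesicle SNARE of the VAMP family winds together with a syntaxin and a SNAP protein on the target membrane, the exocyst tethers the vesicle beforehand, and synaptotagmins tie the last step to calcium. After fusion the ATPase NSF and its adaptor alpha-SNAP, encoded by Nsf and Napa, pull the SNAREs apart for reuse. In oocytes this machinery serves the cortical granules, which lie under the plasma membrane of the mature egg and discharge at fertilisation to block further sperm.

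Between MI and MII the mRNAs of both disassembly factors, of the vesicle SNARE Vamp8, of the syntaxin Stx18 and of the SNAP SNAREs Snap29 and Snap47 fell on polysomes. These calls were not equally firm. In 9 fits that each left out 1 array, those of Nsf and Snap47 held in all 9 and that of Vamp8 in 7. The call of Snap29 held in 2 of the 9, and those of Napa and Stx18 in 1 each. Over the whole span from GV to MII, 11 of 62 members fell (17.7%, against 8.8% of all genes). All 11 were among the 37 members with a stage mean intensity of at least 100, and 18.4% of all genes with that signal fell. The 17.7% is over all 62 members, so it is not on the same base as the 18.4%. The 3 that rose (4.84%, against 5.46% of all genes) were the exocyst subunits Exoc1 and Exoc2 and the vesicle SNARE Vamp3. In the fits without 1 array, the rise of Exoc2 held in all 9, that of Exoc1 in 5 and that of Vamp3 in 1. No synaptotagmin passed the test in any comparison as fitted. Snap23, the SNAP SNARE found in most cell types, did not fall with Snap29 and Snap47: its mean intensity was 278 at GV, 1177 at MI and 808 at MII, and it passed in neither step. Changes were tested with limma on log2(intensity + 16) over all 9 arrays, with the Benjamini-Hochberg adjusted p taken over all 18193 genes and a threshold of 0.05. A change is given on that log2 scale, where the added 16 makes changes at low intensity look smaller. A level given with ± is the mean and SD of the intensity on 3 arrays (n = 3). A set amount of cDNA went onto each array, so an intensity follows the share of a transcript among polysome-bound mRNA, and fewer copies per oocyte and less ribosome loading per copy cannot be told apart.

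**Figure D1:**
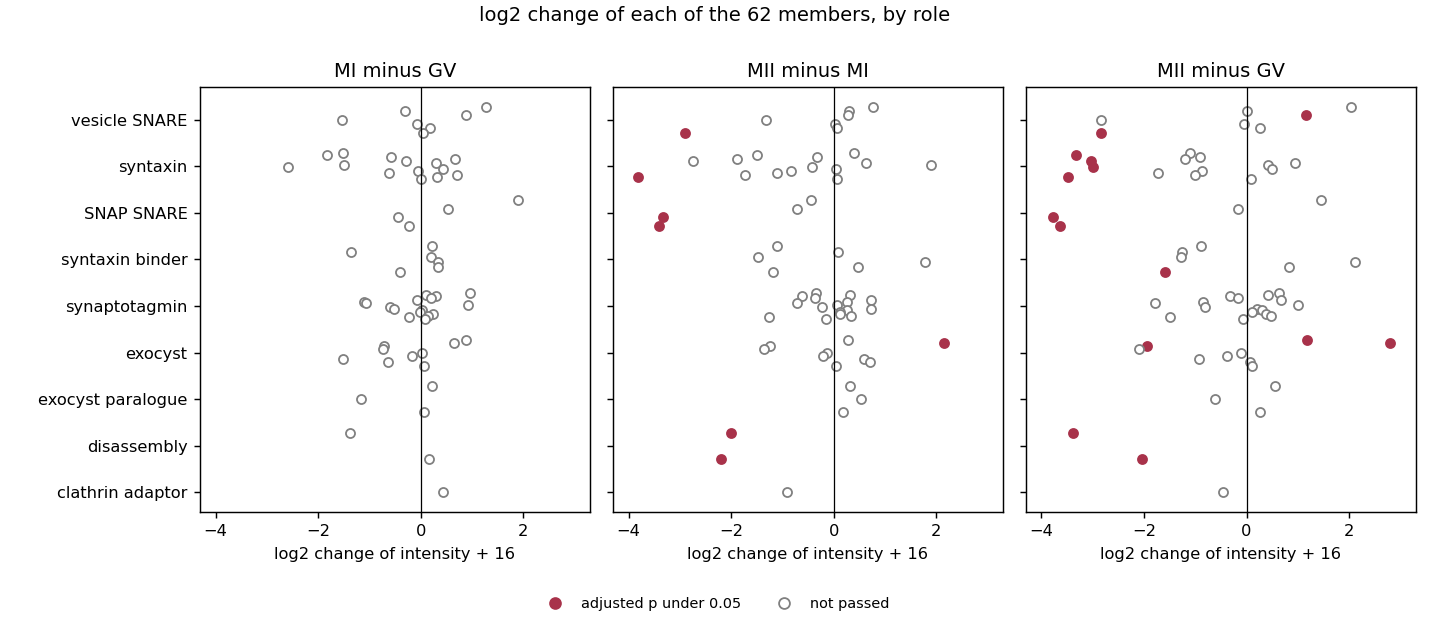
Each point is the log2 change of 1 of the 62 members (x axis, difference of stage means of log2 of intensity + 16), grouped by role (y axis), in the 3 comparisons of stages; filled points passed the adjusted p threshold of 0.05. No point is filled from GV to MI, 7 are from MI to MII and 14 from GV to MII, most of them to the left of 0.

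The oocyte markers set the scale for the samples. Between 10 and 11 of 11 oocyte markers stood at or above an intensity of 100 on every array, with a summed intensity of 53810 to 57320 at GV, 46360 to 49620 at MI and 26860 to 34120 at MII. Of 21 measured granulosa, cumulus and theca markers, 1 to 5 did, and their summed intensity was 1686 on MI 3 and 818.8 to 1322 on the other arrays. Fshr and Amh, which define granulosa cells, stayed at or below 13.95 and 24.17 on every array. Others of the list had clear signal. Cyp11a1 gave 782.46, 679.54 and 129.98 at GV and 490.25, 761.05 and 337.73 at MI. Nr5a2 reached 725.29 on MII 2, Star 402.75 on GV 3 and Inhba 301.84 on MI 3. The 9 blood, immune and endothelial markers summed to 174.9 to 358.1 at GV, 131 to 626.8 at MI and 643.8 to 918.6 at MII, where Pecam1, an adhesion protein, gave 569.27, 626.97 and 785.47. Of 8 neuronal and neuroendocrine markers, 1 or 2 reached 100 on an array, and the list summed to 1837 to 4404 at GV, 4071 to 4532 at MI and 5901 to 7565 at MII, mostly from the tubulin gene Tubb3. The part of these other markers in the results below was not tested.

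Of the 62 members, 37 (59.7%) reached a mean intensity of 100 in at least 1 stage, against 46.9% of all genes. By role these were 5 of 7 vesicle SNAREs, 11 of 14 syntaxins, 3 of 4 SNAP SNAREs, 4 of 6 syntaxin-binding proteins, 4 of 16 synaptotagmins, 6 of 9 exocyst subunits, 1 of 3 exocyst paralogues, both disassembly factors and Snap91. The SNAREs of synapses differed in signal. The highest stage mean was 13.1 for Vamp2 and 24.8 for Snap25, while Stx1a, their syntaxin partner, gave 516.74, 374.07 and 4.27 at GV, 6 to 112.51 at MI and 25.07 to 101.88 at MII. Its GV arrays thus spanned the range from background to clear signal, and Stx1a did not pass (change from GV to MII -1.11, limma adjusted p = 0.683). The highest stage mean of the 12 synaptotagmins under 100 ran from 2.89 to 93.5, with single arrays up to 212.59 for Syt8. For Exoc5 and Exoc8 it was 4.62 and 5.84, too low to read a change in these exocyst subunits. A probe set near background does not show that an mRNA was absent.

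The comparison of MI with GV asks what changes on polysomes in the first 4 h after hCG. No member passed the test in either direction, as no gene of the 18193 did with limma (0% rose and 0% fell). An unadjusted p under 0.05 was reached by 10 of the 62 members (16.1%) and by 1308 of all genes (7.19%), or 11.9% of all genes with a stage mean of at least 100. All 3 MI arrays lay above all 3 GV arrays for 4 members (6.45%, against 6.42% of all genes). They lay below for 5 members (8.06%, against 6% of all genes). Among all genes with a stage mean of at least 100, 8.16% lay above and 7.66% below. Of the 62 members 37 had that signal, and no difference from all genes is read from these small counts. The median change of the 62 members was 0.02, and that of all genes was 0.01.

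The 4 members with MI above GV on every array were Snap23, Syt1, Exoc1 and Vamp3. Snap23 had intensities of 341.15, 205.03 and 288.55 at GV and of 529.55, 1350.60 and 1649.49 at MI. The stages did not overlap, and the change was 1.90 (SE 0.46, 95% interval 0.85 to 2.95, limma adjusted p = 0.406). Syt1, a calcium sensor of regulated secretion, had 46.70, 65.27 and 45.47 at GV and 108.39, 135.87 and 106.74 at MI. Its change was 0.96 (SE 0.21, interval 0.47 to 1.46), and its adjusted p by limma, 0.353, was the smallest of the 62 at this step. For Exoc1 the change was 0.89 (interval 0.30 to 1.48, limma adjusted p = 0.51) and for Vamp3 it was 0.88 (interval 0.14 to 1.62, limma adjusted p = 0.631). The 5 members with MI below GV on every array were Stx2, Stx8, Syt6, Exoc6b and Napa. Stx8, a syntaxin of endosomes, had 873.16, 870.77 and 636.76 at GV and 324.46, 181.20 and 19.51 at MI (change -2.59, SE 0.82, limma adjusted p = 0.56). Its MI arrays were widely spread, with MI 3 far below the others, and Stx8 did not pass.

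The comparison of MII with MI asks what changes between 4 and 14 h after hCG, while the first division is completed and the egg arrests again. At this step 6 of 62 members fell (9.68%, against 6.78% of all genes) and 1 rose (1.61%, against 2.54%). The comparison of MII with GV covers the whole span and shares its MII arrays with that step, so the calls of the 2 comparisons are not independent. From GV to MII 11 members fell (17.7%, against 8.8% of all genes) and 3 rose (4.84%, against 5.46%). Among all genes with a stage mean of at least 100, 18.4% fell and 10.9% rose from GV to MII, and 14.1% fell and 4.97% rose from MI to MII. The shares of members are over all 62, of which 37 had that signal, so the bases differ. Every member that passed was among the 37. The median change of all 62 members was -0.15 from MI to MII and -0.25 from GV to MII, against -0.02 in both comparisons for all genes. For all genes with that signal it was -0.20 and -0.22, again on a base without the low genes that the 62 include. The count of members that fell from MI to MII was 2 without MI 1 or without MI 2 and 3 without GV 1, GV 2 or MI 3, and the count that fell from GV to MII was 4 without GV 2, 6 without GV 3 or MII 3 and 7 without MII 2.

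**Figure D2:**
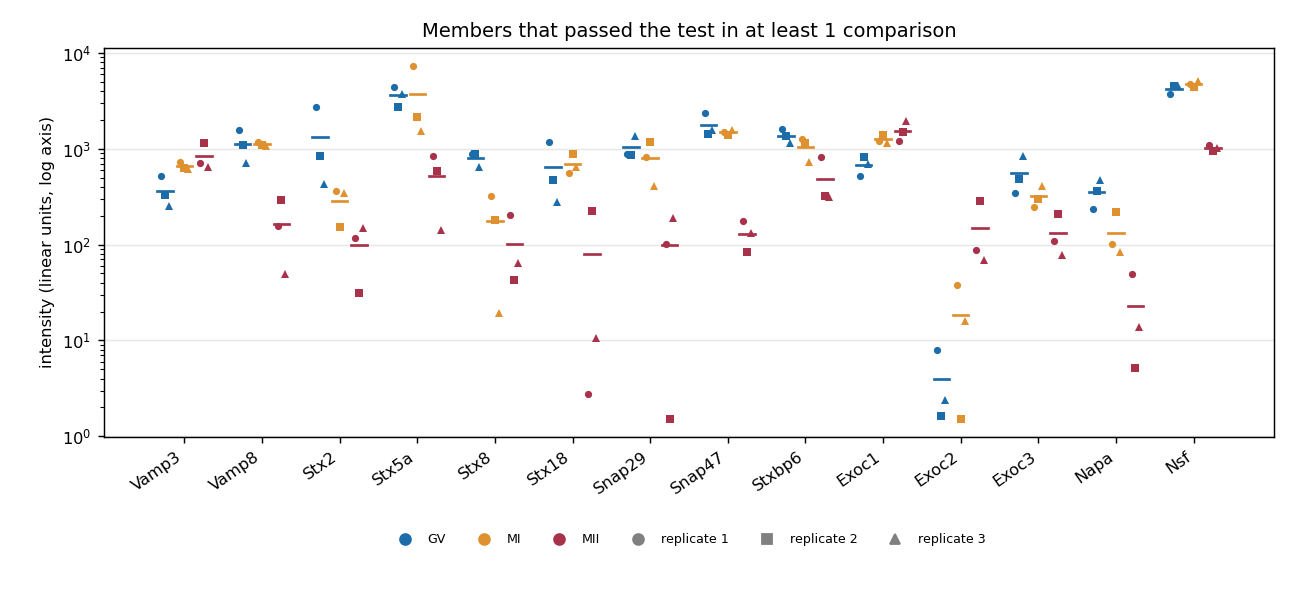
Intensity on each of the 9 arrays (y axis, linear units on a log axis) for the 14 members that passed in at least 1 comparison (x axis); colours are stages, symbols are replicate numbers, and bars are means of 3 arrays. Nsf and Snap47 show tight groups with MII far below GV and MI, while Stx18 and Snap29 have 1 or 2 MII arrays near background.

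Both disassembly factors fell. Nsf, the ATPase that unwinds spent SNARE bundles, gave 3678.99, 4506.17 and 4497.49 at GV, 4681.79, 4405.15 and 5103.84 at MI, and 1093.11, 951.07 and 1009.41 at MII. GV and MI overlapped, and all MII arrays lay far below both. From MI to MII Nsf fell by 2.20 (SE 0.19, 4.59-fold, limma adjusted p = 0.0013) and from GV to MII by 2.03 (4.09-fold, limma adjusted p = 0.001). The call held in each of the 9 fits that left out 1 array. A further probe set with signal, at 1397 ± 932 in MI and 608 ± 222 in MII, had a change of -1.05 that did not pass, and the remaining 2 had stage means of at most 46.5. Napa, the adaptor that brings NSF to the SNARE bundle, gave 233.97, 365.22 and 471.15 at GV, 101.06, 216.02 and 82.65 at MI, and 49.08, 5.15 and 13.80 at MII. The 3 stages did not overlap. Napa fell from GV to MII by 3.38 (SE 0.50, limma adjusted p = 0.00425), a call kept in all 9 fits without 1 array. Its MII arrays lay near background, so the size depends on the constant added before the log, and the change was -4.37 with 1 added and -2.27 with 64 added. From MI to MII it fell by 2.01 (limma adjusted p = 0.0445), but that call held without MII 1 and was lost without each other array (adjusted p from 0.0557 to 0.132).

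Among the vesicle SNAREs, 1 of 7 fell and 1 rose from GV to MII (14.3% each, against 8.8% and 5.46% of all genes). Vamp8, which serves endosomes and secretory granules in many cell types, gave 1577.29, 1093.34 and 716.40 at GV, 1182.78, 1084.80 and 1055.16 at MI, and 156.88, 288.78 and 49.85 at MII. MII lay below both earlier stages on every array, and GV and MI overlapped. Vamp8 fell from MI to MII by 2.89 (SE 0.54, 7.41-fold, limma adjusted p = 0.0157) and from GV to MII by 2.85 (limma adjusted p = 0.0109). The first call was lost when MI 1 or MI 2 was left out (adjusted p = 0.0515 and 0.0531), and the second was kept without any 1 array. Vamp3, the vesicle SNARE of recycling endosomes, gave 519.54, 325.99 and 252.06 at GV, 724.19, 631.97 and 619.18 at MI, and 701.81, 1141.58 and 650.41 at MII. It rose from GV to MII by 1.17 (SE 0.32, interval 0.43 to 1.90, limma adjusted p = 0.0472). This rise held without GV 1 and was lost without each other array (adjusted p from 0.0607 to 0.135), and with the mean of its 5 probe sets (adjusted p = 0.378). The other 4 probe sets of Vamp3 had changes of -0.14, 0.96, 1.60 and 1.04. Vamp4, of the trans-Golgi network, had 341 ± 232 at GV and 38.4 ± 48.8 at MII (change -2.84, limma adjusted p = 0.0822) and another probe set at 1.70. Vamp1 had 58.1 ± 83.4 at GV and 188 ± 60.6 at MII (change 2.04, interval 0.37 to 3.71, limma adjusted p = 0.111), with GV 3 at 154.17 and the other GV arrays at 4.86 and 15.22. Without GV 3 the change of Vamp1 was 2.96 and passed (adjusted p = 0.00857). Vamp7 had 120 ± 49.6 at GV and 142 ± 41.4 at MII (change 0.25, interval -0.98 to 1.49).

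Of the 14 syntaxins, 4 fell from GV to MII and 10 did not pass. The share that fell was 28.6%, against 8.8% of all genes and 18.4% of those with a stage mean of at least 100. No difference is read from so small a count. Stx2, a syntaxin of the plasma membrane, gave 2751.14, 844.92 and 423.60 at GV, 359.76, 153.30 and 347.10 at MI, and 116.79, 31.02 and 148.08 at MII. Each stage lay below the one before it on every array, with a wide spread at GV. Stx2 fell from GV to MII by 3.33 (SE 0.74, 10.1-fold, limma adjusted p = 0.0209), a call lost without GV 2 (adjusted p = 0.0539) or MII 2 (adjusted p = 0.0624). Stx5a, which acts between endoplasmic reticulum and Golgi, gave 4369.55, 2724.95 and 3747.56 at GV and 842.32, 588.00 and 143.50 at MII. It fell by 3.03 (SE 0.74, 8.18-fold, limma adjusted p = 0.0305), a call kept without any 1 of the 3 MI arrays or MII 1 and lost without each of the other 5 (adjusted p from 0.0577 to 0.0892). Its second probe set had a change of -0.83, and the mean of both did not pass.

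Stx18, of the retrograde route to the endoplasmic reticulum, gave 553.00, 877.58 and 641.02 at MI and 2.76, 225.33 and 10.62 at MII. It fell from MI to MII by 3.81 (SE 0.94, limma adjusted p = 0.0428) and from GV to MII it fell by 3.49 (limma adjusted p = 0.0436). MII 2 stood well above the other MII arrays, which lay at background, and the change from MI was -4.98 with 1 added and -2.72 with 64 added. Both calls of Stx18 were lost without each array other than MII 2 (adjusted p from 0.0505 to 0.138), and without MII 2 they were 0.00568 and 0.00524. All 4 other probe sets of Stx18 were also lower at MII, with changes of -3.16, -2.37, -1.82 and -1.82 from MI, and 2 of these passed among all 34945 probe sets (adjusted p = 0.0343 and 0.00544 by limma). Stx8 fell from GV, at 794 ± 136, to MII, at 102 ± 86.2, by 3.00 (SE 0.82, limma adjusted p = 0.0471). That call was kept without MI 1, MI 3 or MII 1, and lost without each of the other 6 (adjusted p from 0.0673 to 0.139). A second probe set of Stx8, at 442 ± 96.0 in GV and 16.4 ± 7.10 in MII, had a change of -3.82 (limma adjusted p = 0.00377 over all probe sets).

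The other syntaxins with signal did not pass as fitted. Stx17, the syntaxin of autophagosomes, depended on the probe set. The one with the highest mean had 1624 ± 622 at MI and 588 ± 524 at MII (change -1.72, limma adjusted p = 0.14). Another gave 880.84, 1070.22 and 655.19 at MI and 120.00, 20.02 and 114.98 at MII, a change of -3.33 (limma adjusted p = 0.0101 over all probe sets). With the mean of its 4 probe sets Stx17 passed in both comparisons with MII. The change was then -1.69 from MI (limma adjusted p = 0.00521) and -1.27 from GV (limma adjusted p = 0.00931). Stx4a, a syntaxin of the plasma membrane and a usual partner of Snap23, gave 99.99, 244.74 and 39.29 at GV, 158.85, 117.25 and 273.03 at MI, and 55.24, 74.30 and 5.06 at MII. Its change from MI to MII was -1.88 (interval -3.50 to -0.25, limma adjusted p = 0.161). Stx12, of early endosomes, had a change of -0.87 from GV to MII (interval -2.35 to 0.60), Stx6, of the trans-Golgi network, one of 0.94 (interval -0.52 to 2.40) and Stx7, of late endosomes, one of 0.42 (interval -1.56 to 2.39).

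Of the 4 SNAP SNAREs, 2 fell (50%), and Snap25 lay near background. Of all genes, 6.78% fell from MI to MII and 8.8% from GV to MII, and no difference is read from 4 genes. Snap47, which pairs with several VAMPs on internal membranes, gave 2358.92, 1408.01 and 1576.98 at GV, 1507.91, 1373.93 and 1584.41 at MI, and 175.92, 82.95 and 132.10 at MII. Snap47 fell by 3.41 from MI to MII (SE 0.30, 10.6-fold, limma adjusted p = 0.00135), and between GV and MI its change was -0.22. Over the whole span it fell by 3.64 (12.4-fold, limma adjusted p = 0.000797), and both calls were kept without any 1 array. Its other probe set had 453 ± 84.3 at MI and 116 ± 76.8 at MII, a change of -1.98 (limma adjusted p = 0.0268 over all probe sets). Snap29, which joins autophagosomes with lysosomes, gave 884.34, 864.46 and 1360.11 at GV, 821.59, 1176.75 and 412.89 at MI, and 101.66, 1.52 and 191.13 at MII. From GV to MII it fell by 3.77 (SE 0.85, limma adjusted p = 0.0218), a call lost without GV 1, GV 2 or GV 3 (adjusted p from 0.0549 to 0.0725) and with the mean of its 3 probe sets. From MI to MII it fell by 3.32 (limma adjusted p = 0.0481), a call kept without MII 2 or MII 3 and lost without each of the other 7 arrays (adjusted p from 0.0616 to 0.147). With MII 2 at background, the change from GV to MII was -4.79 with 1 added and -2.94 with 64 added. The other 2 probe sets of Snap29 had changes of -1.73 and -1.40 from MI to MII, and smaller ones of -0.80 and -0.97 from GV to MII.

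**Figure D3:**
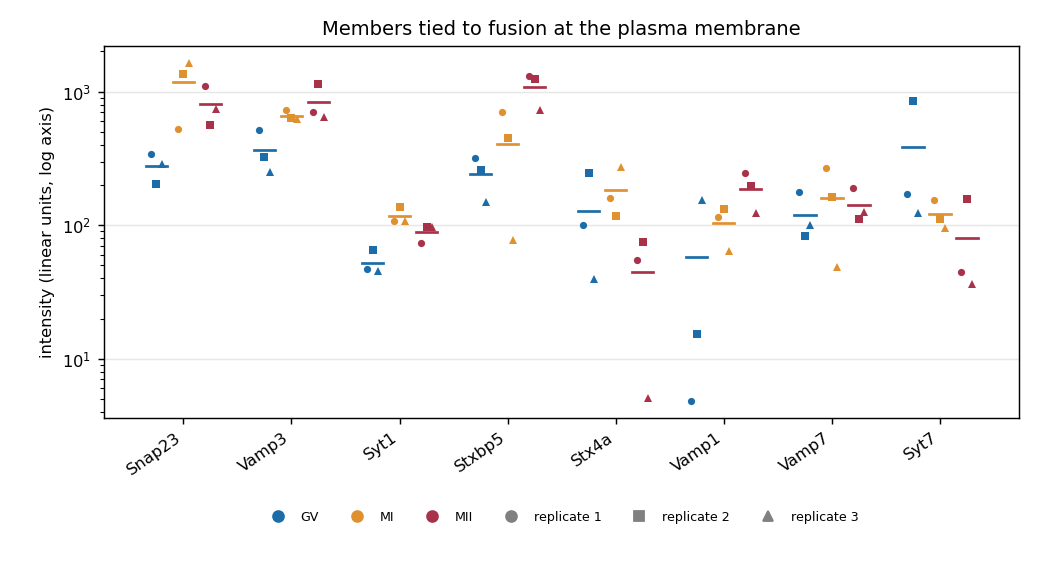
Intensity on each of the 9 arrays (y axis, linear units on a log axis) for 8 members tied to fusion at the plasma membrane (x axis); colours are stages, symbols are replicate numbers, and bars are means of 3 arrays. All 6 MI and MII arrays lie above the 3 GV arrays for Snap23, Vamp3 and Syt1. The 3 MII arrays of Stxbp5 lie above the 6 others. The 8 are a selection and not all such members, so no common direction is read from them. Stx2, a syntaxin of the plasma membrane, and Vamp8, of secretory granules, fell from GV to MII (changes -3.33 and -2.85). Both appear in the plot of all members that passed.

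Snap23 kept a level above that of GV at MII, with arrays at 1112.40, 565.66 and 745.96. Its change from GV to MII was 1.46 (SE 0.46, interval 0.41 to 2.51, limma adjusted p = 0.0733) and from MI to MII -0.44 (interval -1.49 to 0.61, limma adjusted p = 0.684). The first passed without MI 1 (adjusted p = 0.0267), with the GV and MII arrays alone (adjusted p = 0.0402) and when genes under 100 were left out (adjusted p = 0.0485). Of its other 2 probe sets, 1 had signal, with 147 ± 80.6 at GV, 257 ± 117 at MI and 356 ± 212 at MII.

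Of the 6 syntaxin-binding proteins 1 fell from GV to MII (16.7%, against 8.8% of all genes), and the others did not pass. Stxbp6, or amisyn, which binds target SNAREs through a VAMP-like domain, gave 1590.30, 1370.90 and 1143.94 at GV and 828.21, 318.15 and 316.55 at MII. It fell from GV to MII by 1.60 (SE 0.41, 3.02-fold, limma adjusted p = 0.0354). Its call was kept without MI 1, MI 3 or MII 1 and lost without each of the other 6 arrays (adjusted p from 0.0561 to 0.114). Stxbp5, or tomosyn, an inhibitor of SNARE assembly, gave 319.68, 260.31 and 148.06 at GV, 699.15, 448.42 and 77.07 at MI, and 1309.04, 1237.90 and 732.82 at MII. MII lay above both earlier stages, with a change from GV of 2.12 (interval 0.48 to 3.76, limma adjusted p = 0.0935). It passed without MI 3 (adjusted p = 0.0111), and under 5 other settings that included quantile normalization (adjusted p = 0.0478) and the replicate block (adjusted p = 0.0283). Stxbp2, or Munc18-2, a syntaxin chaperone of granule release, gave 1092.01 on MI 3 and 92.07 to 407.12 on the other 8 arrays. MI 3 was also the array with the highest summed granulosa, cumulus and theca markers, and a link with Stxbp2 was not tested. The 3 probe sets of Stxbp2 did not match: the changes from GV to MII were -0.88, -1.22 and -2.91, and the last passed (limma adjusted p = 0.00258 over all probe sets).

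Among the synaptotagmins, 4 of 16 reached an intensity of 100 in a stage. Syt1 had 52.5 ± 11.1 at GV, 117 ± 16.4 at MI and 89.3 ± 13.2 at MII, and its change from GV to MII was 0.62 (interval 0.13 to 1.12, limma adjusted p = 0.101). Syt7, a slow calcium sensor of lysosome and granule release, had 384 ± 410 at GV and 79.6 ± 68.0 at MII, with GV 2 at 856.65 and the other GV arrays at 171.39 and 123.59 (change -1.79, interval -3.46 to -0.12, limma adjusted p = 0.163). Syt16, a member without calcium binding, gave 613.14, 479.96 and 179.83 at GV and 176.35, 133.88 and 80.04 at MII. Its stages GV and MII did not overlap, by a narrow margin, and the change was -1.49 (interval -2.55 to -0.43, limma adjusted p = 0.0705). Syt16 passed without GV 3 (adjusted p = 0.0165), with the replicate block (adjusted p = 0.0207) and with genes under 100 left out (adjusted p = 0.0462). This change did not pass under the rest of the 19 alternative settings. Syt11, another member that does not act as a calcium sensor, had 95.9 ± 18.7 at GV and 182 ± 190 at MII, with MII 1 at 393.51. Over all 16 synaptotagmins the median change from GV to MII was 0.16, with a range from -1.79 to 1.00.

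Of the 9 exocyst subunits, 2 rose (22.2%, against 5.46% of all genes) and 1 fell (11.1%, against 8.8%) from GV to MII. The other 6 did not pass, and the median change of the 9 was -0.12. Exoc1, or Sec3, which marks the site of docking on the plasma membrane, gave 523.01, 819.23 and 687.45 at GV, 1214.07, 1397.31 and 1136.37 at MI, and 1205.63, 1510.14 and 1924.42 at MII. Every MI and MII array lay above every GV array, and MI and MII overlapped. Exoc1 rose from GV to MII by 1.17 (SE 0.26, 2.25-fold, limma adjusted p = 0.0198), a call that 4 of the 9 left-out arrays ended, namely GV 1, GV 3, MII 2 and MII 3 (adjusted p between 0.0531 and 0.0646). Exoc2, or Sec5, the subunit that binds Ral GTPases, gave 8, 1.63 and 2.39 at GV, 38.18, 1.53 and 15.80 at MI, and 87.59, 284.86 and 69.41 at MII. It lay at background at GV and above it at MII. Exoc2 rose from GV to MII by 2.81 (SE 0.55, limma adjusted p = 0.013), a call kept without any 1 array. The size is set in part by the added constant: it was 4.81 with 1 added and 1.497 with 64 added. It also rose by 2.15 from MI to MII (limma adjusted p = 0.0489), a call kept without MI 1 and lost without each other array (adjusted p from 0.0616 to 0.143). Exoc3, or Sec6, gave 346.03, 478.68 and 840.10 at GV and 110.15, 206.78 and 78.32 at MII, and fell by 1.95 (SE 0.42, 3.87-fold, limma adjusted p = 0.0191). Leaving out GV 2, GV 3, MII 1 or MII 3 ended that call (adjusted p from 0.0512 to 0.0651), and also with the mean of its 2 probe sets, the second of which had 34.8 ± 7.16 at GV and 47.6 ± 25.3 at MII. Exoc6 and Exoc7, which like Exoc1 belong to the tethering complex itself, had changes of -0.38 (interval -1.30 to 0.54) and 0.07 (interval -0.79 to 0.94).

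Exoc4, or Sec8, gave opposite readings from its probe sets. The one with the highest mean had 600.81, 1191.52 and 4124.60 at GV, 859.91, 1034.47 and 703.42 at MI, and 374.72, 285.05 and 311.92 at MII. Its change from GV to MII was -2.11 (interval -3.50 to -0.71, limma adjusted p = 0.0549), and it passed without GV 1 at -2.73 (adjusted p = 0.018) and with genes under 100 left out (adjusted p = 0.0282). A second probe set had 115.04, 135.21 and 67.37 at GV, 92.98, 472.93 and 192.99 at MI, and 1398.14, 1345.17 and 1348.73 at MII. At that probe set the signal rose from GV to MII by 3.55 (limma adjusted p = 0.00491 over all probe sets) and from MI to MII by 2.63 (limma adjusted p = 0.0231). The remaining 3 probe sets had changes of -1.69, 0.26 and 1.37 from GV to MII and did not pass. Exoc4 was singled out after its values were seen, and the transcripts that each probe set detects were not analysed here. The probe sets of Exoc6 also differed: at 1 of 4 the signal fell by 2.63 from GV to MII (limma adjusted p = 0.00589 over all probe sets).

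**Figure D4:**
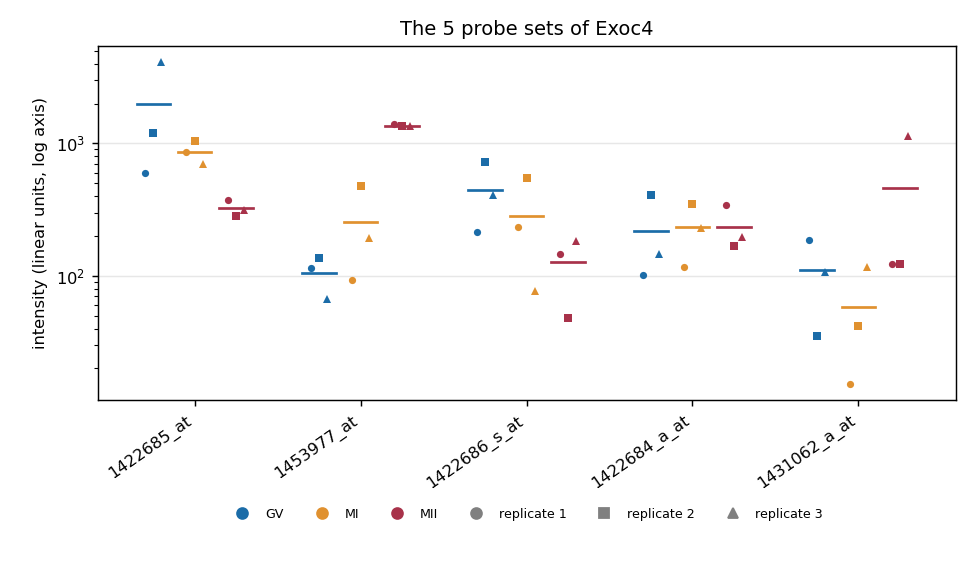
Intensity on each of the 9 arrays (y axis, linear units on a log axis) at the 5 probe sets of Exoc4 (x axis); colours are stages, symbols are replicate numbers, and bars are means of 3 arrays. The probe set at the left is lowest at MII, with a mean of 324, while the next one is highest there, with a mean of 1364 and an SD of 29.6.

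Other genes of vesicle fusion outside the rule were read from a list of 61 genes, of which 59 were measured. From MI to MII 10 of them fell (16.9%, against 6.78% of all genes and 14.1% of those with a stage mean of at least 100) and 1 rose. From GV to MII 14 fell (23.7%, against 8.8% and 18.4%) and 1 rose. Only 40 of the 59 had that signal, so 14.1% and 18.4% are on a base without low genes and the shares of the 59 are not. The median change of the 59 was -0.24 and -0.43 in these comparisons. Of 12 further SNAREs, 4 fell from GV to MII, among them Use1, of the retrograde route to the endoplasmic reticulum that also uses Stx18, from 538 to 39.3 (change -3.40, SE 0.52, limma adjusted p = 0.00469; -4.05 with 1 added and -2.50 with 64 added). Sec22a fell from MI to MII by 2.68 (limma adjusted p = 0.0211), a call that ended when MI 1, MI 2 or MII 2 was left out (adjusted p = 0.0688, 0.0761 and 0.0503). Of 7 Sec1-family proteins and disassembly partners, 3 fell in both comparisons. Scfd2 fell from GV to MII by 2.52 (limma adjusted p = 0.00569), and Vps45, the Sec1-type partner of Stx16, fell from MI to MII by 3.13 (limma adjusted p = 0.0227), which did not pass when MI 1, MII 2 or MII 3 was left out (adjusted p from 0.0649 to 0.0697).

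Among regulators of granule release and transport, both directions occurred. Of 23 priming and calcium regulators, Cadps2, a priming factor of dense-core vesicles, fell from GV, at 319 ± 122, to MII, at 8.38 ± 4.02 (change -3.73, SE 0.64, limma adjusted p = 0.00766). MII lay at background, and the change was -5.11 with 1 added and -2.35 with 64 added before the log. Sytl4, or granuphilin, which docks secretory granules through Rab27, rose. It gave 1221.73, 975.85 and 779.23 at GV, 1292.85, 2010.58 and 1343.57 at MI, and 3416.26, 3789.82 and 2788.13 at MII, a rise from GV of 1.74 (SE 0.27, limma adjusted p = 0.00503) that was lost with the mean of its 2 probe sets. Of 16 transport and tethering genes, 5 fell from GV to MII (31.2%, against 8.8% of all genes and 18.4% of those with a stage mean of at least 100). Rab3b, a GTPase of secretory vesicles, fell from MI to MII by 2.68 (1808 ± 651 to 272 ± 102, limma adjusted p = 0.0116). Astl, which encodes ovastacin, the cortical granule protease that cleaves the zona protein ZP2, gave 6857.97, 6210.64 and 6582.46 at GV, 7017.62, 5715.28 and 3669.46 at MI, and 2469.18, 2479.91 and 2061.27 at MII. It fell from GV to MII by 1.49 (SE 0.26, limma adjusted p = 0.00852), a call kept without any 1 array. Astl and Sytl4 were named after their values were seen.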

How the data were processed

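The authors deposited 1 table with a linear intensity for each of 45101 probe sets on the 9 arrays. Per the labels, polysome-bound mRNA was reverse-transcribed, linearly amplified and labelled with biotin. How probes were summarised or scaled is not given in the sources used here, and no build is named in it, which is why positions are left out. Array medians lay between 12.4 and 13.2. Controls (64) and probe sets with several symbols (932) or none (9160) in the platform annotation were left out, and RefSeq gene identifiers matched all 62 members. Of a gene's probe sets, the one with the highest mean log2(intensity + 16) stood for it. Probe set names ending in _s_at or _x_at mark probes shared with other transcripts, as for Snap47, Stx18, Stx5a, Stx1a and Stxbp2, whose values are less certain.

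One model with the 3 stage means was fitted to all 9 arrays without a filter on low signal (limma 3.58.1, R 4.3.3), and tests were two-sided. Intervals are 95% and unadjusted. Single probe sets were adjusted over 34945. On simulated arrays with this spread, MI to MII, over 18193 genes with 400 changed per size, the fit recovered 42.3% of 4-fold and 83% of 16-fold changes. Every member that passed, and a panel of members, may be named; up to 6 genes of the wider list were taken by largest change. Members and lists were chosen with earlier results of these data known. Sytl3 and Sytl5 of the wider list were not analysed here.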

Additional observations from a re-analysis of the deposited data

How the results depend on the processing

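Of the 21 calls of members over the 2 comparisons with MII, 7 held under all 19 alternatives run for each: Nsf and Snap47 in both comparisons and Napa, Vamp8 and Exoc2 from GV to MII. Vamp8 and Exoc2 have 1 probe set each, so the alternatives that change the choice of probe set left their own values as they were. The sign of a called member turned in 0 cases. From MI to MII, Exoc2 was the 1 member that rose, and the count was 0 with pseudocount 1 or 64, with median centring, with the replicate block or with the MI and MII arrays alone, and 0 to 1 without 1 array. The count that fell, 6, was 3 with pseudocount 1 and ranged from 2 to 6 without 1 array. From GV to MII, the 3 that rose were 1 with pseudocount 1, 5 without genes under 100, and 1 to 3 without 1 array, and the 11 that fell ranged from 4 to 12 without 1 array. From GV to MI the counts stayed 0. Deviations of same-numbered arrays correlated at 0.0091 to 0.21, with 5 of 9 pairs above 0.1, and those of differently numbered arrays at -0.23 to 0.11, with 1 of 18 above 0.1. As not every same-numbered pair passed 0.1, the numbers were not taken as pairing, although 7 of 9 arrays correlated best with their own number, a hint from the data. The cut-off of 0.1 was a choice and does not show that the arrays were unpaired. With the replicate block 5 members fell from MI to MII (3 of the 6, plus Stx5a and Syt16), and 3 rose (Stxbp5 in place of Vamp3) and 11 fell (Syt16 in place of Stx18) from GV to MII. The cause of these shifts was not tested. Where signal lies near background, the arrays limit what can be read.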
